A study of Cavia porcellus with 10 samples.

Results

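Prostaglandins are made from arachidonic acid in 3 steps, and the genes described here encode the enzymes of each step and of the breakdown that follows. Phospholipases A2 cut arachidonic acid out of membrane phospholipids, cyclo-oxygenases turn it into prostaglandin H2, and terminal synthases turn prostaglandin H2 into prostaglandin E2, prostaglandin D2 or prostacyclin. The dehydrogenase HPGD starts the inactivation of prostaglandins. In the cervix, prostaglandin E2 is known for its part in the softening and dilation that precede birth, and prostacyclin for its action on vessels and smooth muscle.

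Of 10 genes listed for this pathway core, 9 have a row among the 25028 genes of the deposited table. These are the phospholipases PLA2G10 (ENSCPOG00000027338) and PLA2G4A (ENSCPOG00000003809), the cyclo-oxygenase PTGS2, which the table names PGH2_CAVPO (ENSCPOG00000001983), the synthases PTGES (ENSCPOG00000011049), PTGES2 (ENSCPOG00000005862), PTGES3 (ENSCPOG00000000057), PTGDS (ENSCPOG00000007551) and PTGIS (ENSCPOG00000027024), and HPGD (ENSCPOG00000001979). In the table, 8 of the names were matched letter for letter, and HPGD was read from the row named PGDH_CAVPO. PTGS1, the other cyclo-oxygenase, is not analysed here. The rows were found by gene name.

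RNA was sequenced from the vaginal portion of the cervix of Hartley guinea pigs. The guinea pig gives birth without a systemic fall of progesterone. The animals were 3 non-pregnant females killed in estrus (NP), 3 at mid-pregnancy (MT, estimated gestation of 43.6 ± 0.5 days) and 4 in late pregnancy but not in labor (LT, 65.2 ± 1.2 days). No animal received a treatment according to the labels, and each library is 1 animal. Between 18730665 and 27881572 reads per animal were counted on genes, and a level of 3 TPM (transcripts per 1000000, a unit that corrects for gene length) rested on a median of 55 to 104.5 reads.

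The tissue holds several cell types, and some of their marker genes differed between the stages. The summed TPM of 11 mucus secretory markers ranged from 182 to 470 in NP, from 2400 to 6350 in MT and from 8450 to 11100 in LT. From MT to LT this sum was carried by AGR2, a protein disulfide isomerase of secretory cells, with means of 2255 and 6718 TPM. AGR2 and BPIFB1 were the only ones of 8 tested to be called from MT to LT, while the mucin MUC5B had means of 730 and 340 TPM and CREB3L1 of 205 and 169 TPM. NP replicate 1 stood apart from the other NP animals, with 3628 against 1054 and 1128 summed TPM for squamous markers and 30770 against 8168 and 10520 for smooth muscle markers. In bulk tissue, fewer cells of a type and less RNA per cell cannot be told apart. The TPM values of each animal are relative to all its transcripts. The median log2 fold change (log2FC, on the scale of TPM + 1) of all genes tested was -0.14 from NP to MT, -0.16 from MT to LT and -0.28 from NP to LT.

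**Figure D1:**
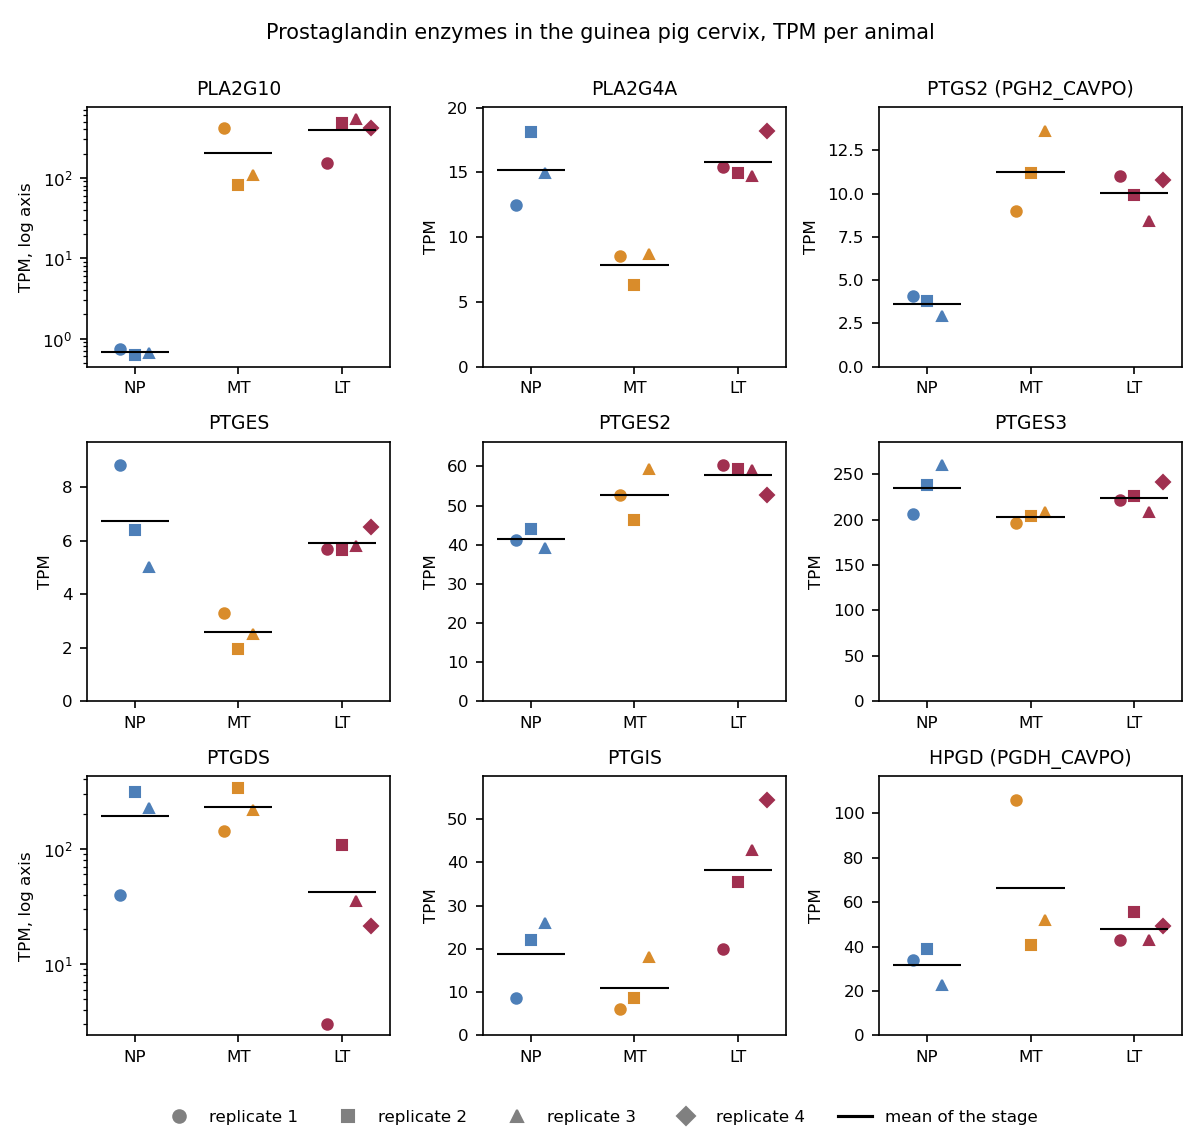
TPM of the 9 enzymes in each animal (vertical axes, logarithmic for PLA2G10 and PTGDS and starting at 0 for the others) by stage (horizontal axes), with 1 symbol per replicate number and a line at the mean of the stage. PLA2G10 and PTGS2 were higher in every MT and LT animal than in every NP animal, whereas PLA2G4A and PTGES were lower in every MT animal than in any other animal.

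The enzymes did not change as a block. From NP to MT, 4 of the 9 had an adjusted p under 0.05 in limma, with PLA2G10 and PTGS2 higher and PLA2G4A and PTGES lower. Over all 12645 genes tested 18.5% passed in this comparison, 6.27% higher and 12.2% lower. Between MT and LT, 4 of the 9 passed, with PLA2G4A, PTGES and PTGIS higher and PTGDS lower. Over all genes 29.4% passed, 6.73% higher and 22.7% lower. Between NP and LT, 3 of the 9 passed, all higher in LT (PLA2G10, PTGS2 and PTGES2), against 53.1% of all genes, 11.2% higher and 41.9% lower.

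The median log2FC over the 9 enzymes was 0.34 from NP to MT, 0.14 from MT to LT and 0.47 from NP to LT. The animals of the stages did not overlap for 6 of the 9 enzymes from NP to MT (34.9% of all genes), for 4 from MT to LT (46.3%) and for 4 from NP to LT (52.4%). The number of enzymes called depended on the scaling. After scaling the TPM by the median ratio, and also with edgeR on the read counts, it was 4 higher and 2 lower from NP to MT, 5 higher and 0 lower from MT to LT, and 6 higher and 0 lower from NP to LT. Over all 12645 genes, the scaled TPM gave 1313 higher and 979 lower from NP to MT. It gave 1776 and 1939 from MT to LT, and 3128 and 3157 from NP to LT. With edgeR these counts were 1271 and 1009, 1696 and 1971, and 2990 and 3257. In limma on unscaled TPM, the number of enzymes called from MT to LT fell to 2 without MT replicate 2, without LT replicate 3 or without LT replicate 4.

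**Figure D2:**
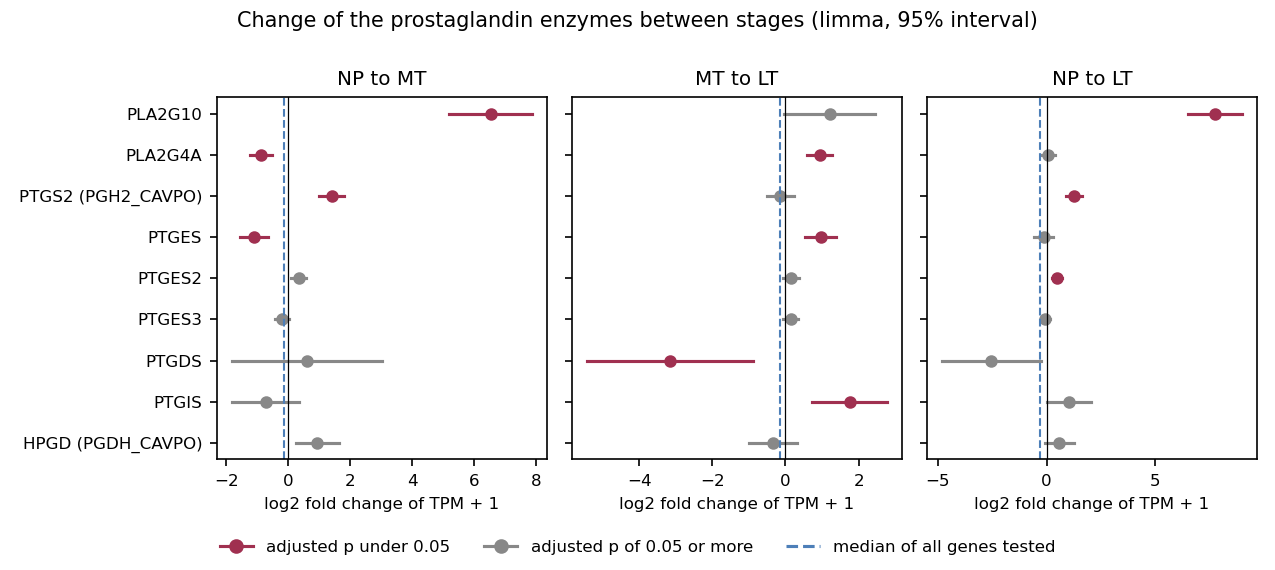
Log2 fold change of TPM + 1 (horizontal axes) of each enzyme in the 3 comparisons between stages, with limma's 95% interval as a bar. Filled red points have an adjusted p under 0.05, and the dashed line is the median of all genes tested. PLA2G4A and PTGES lie left of 0 from NP to MT and right of 0 from MT to LT.

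The 2 phospholipases moved in opposite directions on entry into pregnancy. PLA2G10 is a secreted phospholipase A2 that acts on the outer face of cell membranes. It was at 0.737, 0.629 and 0.672 TPM in the NP animals, resting on 5 to 8 reads each, at 414.5, 80.3 and 108.3 TPM in the MT animals, and at 152.3, 481.2, 535.9 and 410.6 TPM in the LT animals. No NP animal reached 3 TPM, and every pregnant animal was above 80 TPM. The log2FC was 6.53 from NP to MT (standard error, SE, 0.60, adjusted p = 0.00028) and 7.73 from NP to LT (SE 0.56, adjusted p = 4.22e-05). Adding 1 to each TPM compresses the change of a gene this low in NP. On the read counts edgeR gave log2FC values of 8.28 and 9.44, and the ratio of the mean TPM of MT to that of NP was 296, or 139 without MT replicate 1. The NP to MT value in limma lay between 5.81 and 6.99 with 1 animal left out.

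The LT level of PLA2G10 could not be placed above the MT level. The means were 201 ± 185 TPM for MT (SD, n = 3) and 395 ± 170 TPM for LT (SD, n = 4), the animals overlapped, and the log2FC was 1.21 with a 95% interval from -0.03 to 2.45 (adjusted p = 0.124). The 2 animals that lay apart decided this call. Without MT replicate 1, the highest MT animal, the log2FC was 1.92 (adjusted p = 0.017), and without LT replicate 1, the lowest LT animal, it was 1.62 (adjusted p = 0.0403). MT replicate 1 also had the highest summed mucus secretory markers of the MT animals (6354 TPM against 2401 and 4610), and LT replicate 1 the lowest of the LT animals (8452 TPM). The order was not shared by the other LT animals, of which replicate 4 had the highest sum (11110 TPM) with 410.6 TPM of PLA2G10, and replicate 3 a sum of 9055 TPM with the highest PLA2G10. From NP to MT the mean of AGR2 went from 154 to 2255 TPM and that of MUC5B from 75.8 to 730 TPM. The part of mucus secretory cells in the change of PLA2G10 was not tested.

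**Figure D3:**
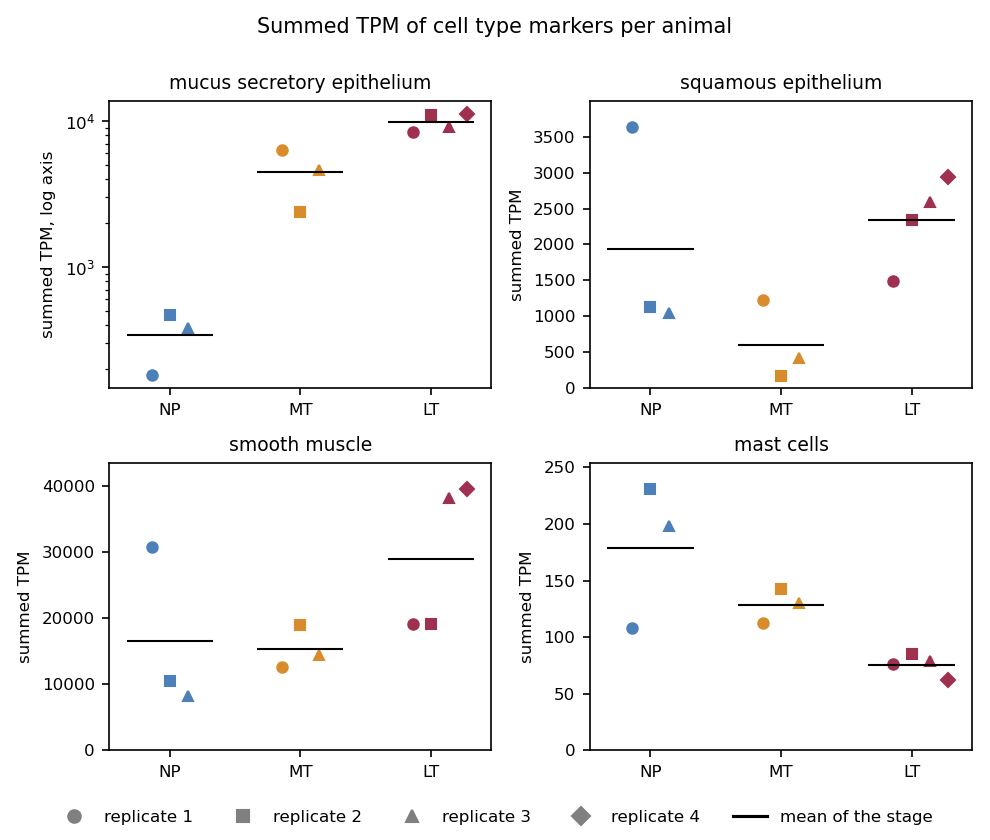
Summed TPM of marker genes in each animal (vertical axes, logarithmic for the mucus secretory epithelium and starting at 0 for the others) by stage (horizontal axes), with a line at the mean. The mucus secretory sum does not overlap between any pair of stages, with AGR2 carrying it from MT to LT, mast cell markers are lowest in the LT animals, and smooth muscle markers are highest in LT replicates 3 and 4.

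PLA2G4A, the calcium-activated cytosolic phospholipase A2 with a preference for arachidonic acid, took the opposite course at mid-pregnancy. It was at 12.45, 18.2 and 15.0 TPM in NP, at 8.55, 6.33 and 8.68 TPM in MT, and at 15.4, 14.95, 14.7 and 18.2 TPM in LT. Every MT animal lay below every other animal, and the NP and LT animals overlapped. Between NP and MT its log2FC was -0.87 (SE 0.16, adjusted p = 0.00677) and 0.93 from MT to LT (SE 0.15, adjusted p = 0.00358). Both calls held under all 19 alternative settings. From NP to LT the log2FC was 0.06 with a 95% interval from -0.27 to 0.40 (adjusted p = 0.737). On the read counts, DESeq2 (adjusted p = 0.0373) and edgeR after filterByExpr (adjusted p = 0.045) called this last comparison higher in LT.

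In TPM, which is per transcript length, the ratio of PLA2G10 to PLA2G4A was between 0.0346 and 0.0592 in the NP animals. It was 48.5, 12.7 and 12.5 in the MT animals, and lay between 9.89 and 36.4 in the LT animals. PLA2G4A was thus the more abundant of the 2 transcripts in each NP animal and PLA2G10 in each pregnant animal.

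Among 20 other phospholipases A2, 19 had a row and 10 were tested. One of the 10, PLA2G16, passed from NP to MT and none passed from MT to LT. PLA2G16, an intracellular phospholipase known for its role in fat tissue, had 16.1, 24.4 and 29.1 TPM in NP, 41.1, 43.9 and 46.2 TPM in MT, and 48.8 to 57.6 TPM in LT. All pregnant animals were above all NP animals, and the log2FC from NP to MT was 0.92 (adjusted p = 0.00763). The median log2FC of the 10 genes was -0.20 from NP to MT and 0.11 from MT to LT. From NP to LT, PLA2G3 and PLA2G16 were higher and PLA2G6 and PLA2G15 lower.

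Genes listed for the return of arachidonic acid to phospholipids or its release by other routes were all tested, 13 of 13. From NP to MT, ACSL3 and MGLL rose and none of the 13 was called lower. In every MT animal against every NP animal, 4 of the 13 were higher and 3 lower. The animals of these stages did not overlap for 34.9% of all genes. ACSL3, which activates long-chain fatty acids with coenzyme A, was between 55.5 and 95.9 TPM for NP, between 170.5 and 235.5 TPM for MT and between 178.7 and 243.6 TPM for LT, with a log2FC of 1.54 from NP to MT (adjusted p = 0.00176). MGLL, the lipase that frees arachidonic acid from the endocannabinoid 2-arachidonoylglycerol, was at 56.5, 47.3 and 46.8 TPM in NP, at 129.9, 99.5 and 95.6 TPM in MT, and at 124.4, 144.8, 218.0 and 168.7 TPM in LT. MGLL was higher in all pregnant animals than in any NP animal, and it was called from NP to MT (log2FC 1.09, adjusted p = 0.0058). Its MT and LT animals overlapped. The log2FC between them was 0.58 (adjusted p = 0.04), and this call was lost in 9 of the 19 settings, among them the fits without NP replicate 2, MT replicate 2 or 3 (up to 0.132) or LT replicate 2, 3 or 4.

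In late pregnancy, compared with MT, ACSL4 was higher as well, and DAGLA, PLCB1 and PLCG1 were lower. ACSL4, an acyl-CoA synthetase that prefers arachidonic acid, had a log2FC of 0.37 (adjusted p = 0.047), a call lost in 9 of the 19 settings. These include the fits without NP replicate 2, MT replicate 1 or 2 (up to 0.176) or any LT animal. PLCG1, a phospholipase C that acts below growth factor receptors, was at 43.5, 45.8 and 36.7 TPM in MT and at 24.1, 24.6, 21.0 and 19.6 TPM in LT. These groups did not overlap, and the log2FC was -0.88 (adjusted p = 0.00464). PLCB1, which acts below G protein-coupled receptors, had a log2FC of -0.55 (adjusted p = 0.011). This call was lost in 5 of the 19 settings. These were edgeR (0.0831, or 0.0966 after filterByExpr), DESeq2 (0.0596), median-ratio scaling (0.0825) and the replicate number as a block (0.059). The median of the 13 genes was -0.16 from NP to MT and -0.13 from MT to LT.

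PTGS2, the inducible cyclo-oxygenase, rose by mid-pregnancy and stayed within the MT range in late pregnancy except for 1 animal. It was at 4.09, 3.82 and 2.93 TPM in NP, at 8.98, 11.2 and 13.6 TPM in MT, and at 11.02, 9.92, 8.41 and 10.8 TPM in LT. The lowest pregnant animal, at 8.41 TPM, was above the highest NP animal, and the MT and LT animals overlapped. The means were 3.61 ± 0.60 TPM (SD, n = 3), 11.25 ± 2.32 TPM (SD, n = 3) and 10.03 ± 1.18 TPM (SD, n = 4). Its log2FC was 1.40 from NP to MT (SE 0.17, adjusted p = 0.00116) and 1.26 from NP to LT (SE 0.16, adjusted p = 0.000318). From MT to LT it was -0.14 with a 95% interval from -0.50 to 0.22 (adjusted p = 0.539). Scaled by the median ratio, this last value was 0.015, so that no direction can be given.

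PTGES, the membrane-bound prostaglandin E synthase that is often induced together with PTGS2, did not rise with it. It was at 8.83, 6.41 and 5.02 TPM in NP, at 3.30, 1.96 and 2.502 TPM in MT, and at 5.69, 5.65, 5.79 and 6.53 TPM in LT. The 3 MT animals were the lowest of all 10, and only 1 of them reached 3 TPM. The means were 6.75 ± 1.93 TPM (SD, n = 3), 2.59 ± 0.68 TPM (SD, n = 3) and 5.92 ± 0.42 TPM (SD, n = 4), and in MT they rested on 15 to 26 reads per animal. Between NP and MT its log2FC was -1.10 (SE 0.21, adjusted p = 0.00677) and 0.96 from MT to LT (SE 0.19, adjusted p = 0.007). Both calls held under all 19 alternative settings.

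The NP and LT levels of PTGES could not be told apart. The log2FC was -0.14 with a 95% interval from -0.57 to 0.29 (adjusted p = 0.567), and it was 0.11 after median-ratio scaling. Squamous markers, of which 7 of 12 had a row, had a summed TPM of 3628, 1128 and 1054 in NP, 1231, 166.4 and 414.6 in MT, and 1490 to 2934 in LT. In each stage the animal with the highest sum was also highest for PTGES. The sum of stromal fibroblast markers was likewise highest in NP replicate 1 (11830 TPM) and MT replicate 1 (10670 TPM), but in LT it was highest in replicate 1 (9745 TPM). The squamous sum was carried by KRT14, a keratin of the basal layer, with means of 1571, 548 and 2237 TPM in NP, MT and LT. The order of IVL and TMPRSS11D, with NP highest, differed from this. IVL had means of 53.3, 2.55 and 0.528 TPM and TMPRSS11D of 130, 0.467 and 3.36 TPM. The part of these cell types in the level of PTGES was not tested.

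PTGES2, a prostaglandin E synthase that is expressed constitutively in many tissues, was more abundant than PTGES in every animal and was higher in late pregnancy than in NP. It was at 41.1, 44.1 and 39.1 TPM in NP, at 52.7, 46.3 and 59.4 TPM in MT, and at 60.3, 59.5, 59.1 and 52.8 TPM in LT. All pregnant animals were above all NP animals, and MT and LT overlapped. From NP to LT the log2FC was 0.47 (SE 0.10, adjusted p = 0.00301), and this held under all 19 alternative settings. From NP to MT it was 0.34 (SE 0.10, adjusted p = 0.0503), which passed in 5 of the 19 settings, among them median-ratio scaling (0.46, adjusted p = 0.0186). Between MT and LT it was 0.14 (adjusted p = 0.313), and 0.30 after median-ratio scaling (adjusted p = 0.048).

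PTGES3, which encodes a cytosolic protein with prostaglandin E synthase activity that also serves as a co-chaperone of HSP90 for steroid receptors, had the highest mean TPM of the E synthases in every stage. It was at 205.8, 237.7 and 259.8 TPM in NP, at 196.0, 203.6 and 208.7 TPM in MT, and at 221.3, 226.0, 208.4 and 241.0 TPM in LT. The animals of each stage overlapped with those of both others. For PTGES3 the log2FC was -0.20 from NP to MT, 0.14 from MT to LT and -0.06 from NP to LT, with adjusted p-values of 0.172, 0.258 and 0.604. The direction from NP to LT flipped with scaling, to 0.23 (adjusted p = 0.0303), and from MT to LT the scaled value was 0.31 (adjusted p = 0.0164).

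PTGDS, the lipocalin-type synthase of prostaglandin D2, had the largest standard errors of the 9 enzymes. It was at 40.1, 308.5 and 225.7 TPM in NP, at 142.1, 337.8 and 216.0 TPM in MT, and at 3.04, 108.9, 35.1 and 21.5 TPM in LT. Every LT animal was below every MT animal, but NP replicate 1 lay within the LT range. Between MT and LT its log2FC was -3.16 (SE 1.02, adjusted p = 0.0414), and this call was lost in 12 of the 19 settings. It was lost with edgeR (-2.30, adjusted p = 0.0881), with DESeq2 (adjusted p = 0.0596) and without LT replicate 1, the lowest animal (-2.29, adjusted p = 0.0597). An exact permutation test of MT against LT gave a two-sided p of 0.0571, where 0.0286 is the smallest that 3 against 4 animals allow. From NP to LT the log2FC was -2.54 (adjusted p = 0.0578), and without NP replicate 1 it was -3.43 (adjusted p = 0.0184).

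HPGDS, the other prostaglandin D synthase, belongs to mast cells and other blood-derived cells in many tissues and was higher in LT than in MT. It was at 26.8, 25.7 and 14.5 TPM in NP, at 9.77, 15.5 and 9.04 TPM in MT, and at 23.3, 28.1, 50.3 and 73.2 TPM in LT. All LT animals exceeded all MT animals, and the log2FC between these stages came to 1.74 (SE 0.38, adjusted p = 0.00979). The summed TPM of mast cell markers, of which 6 of 8 had a row, ranged from 112 to 142 in MT and from 62.5 to 85.1 in LT, and 2 of the 6 were called lower in LT and none higher. Over all genes tested, 22.7% were called lower from MT to LT and 6.73% higher. Smooth muscle markers were highest in LT replicates 3 and 4, at 38140 and 39440 summed TPM against 19050 and 19040 in the other LT animals. All 8 of these markers were higher in both animals than in either of the others, and ACTG2, a smooth muscle actin, contributed most, at 15690 and 16310 TPM against 5964 and 5017 TPM. The same 2 animals were highest for HPGDS. Of the 8 markers, SMTN alone was called higher from MT to LT, and MYH11 had means of 997 and 1083 TPM. Of 10 leukocyte markers tested, CD14 and CSF3R were called higher in LT than in MT and none lower. CD14 had means of 28.6 and 68.6 TPM in MT and LT, and PTPRC of 9.62 and 6.89 TPM. The part of any of these cell types in the change of HPGDS was not tested.

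PTGIS, prostacyclin synthase, is an enzyme of vessels and smooth muscle. It was at 8.58, 22.0 and 26.0 TPM in NP, at 6.02, 8.74 and 18.2 TPM in MT, and at 19.9, 35.4, 42.8 and 54.5 TPM in LT. All LT animals were above all MT animals, and the NP animals overlapped with both. Between MT and LT its log2FC was 1.75 (SE 0.46, adjusted p = 0.019). This call was lost in 4 of the 19 settings, each of which left out 1 animal. The adjusted p was 0.0654 without MT replicate 1, 0.0698 without MT replicate 2, 0.0505 without LT replicate 3 and 0.0501 without LT replicate 4. The NP and LT animals differed by a log2FC of 1.03 (adjusted p = 0.0827), and after median-ratio scaling it was 1.31 (adjusted p = 0.0358).

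As for HPGDS, the highest LT values of PTGIS were in LT replicates 3 and 4, the animals with the highest smooth muscle sum. In NP, replicate 1 had the highest smooth muscle sum of the NP animals (30770 TPM) and the lowest PTGIS (8.58 TPM). Of 7 endothelial markers tested, 6 were called lower in LT than in MT and none higher, and their summed TPM ranged from 118 to 173 in MT and from 66.0 to 105 in LT. Over all genes tested, 22.7% were called lower in this comparison. The part of these cell types in the change of PTGIS was not tested.

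Among PTGES, PTGES2, PTGDS and PTGIS the make-up differed in late pregnancy. PTGDS held 69.6% to 85.6% of their summed TPM in the MT animals and 3.42% to 52.0% in the LT animals. PTGIS held 2.21% to 6.13% in MT and 16.9% to 40.3% in LT. NP was split, with PTGDS at 40.6% in NP replicate 1 and at 81.0% and 76.3% in the others. These shares are descriptive, since a share falls when another of the 4 rises.

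**Figure D4:**
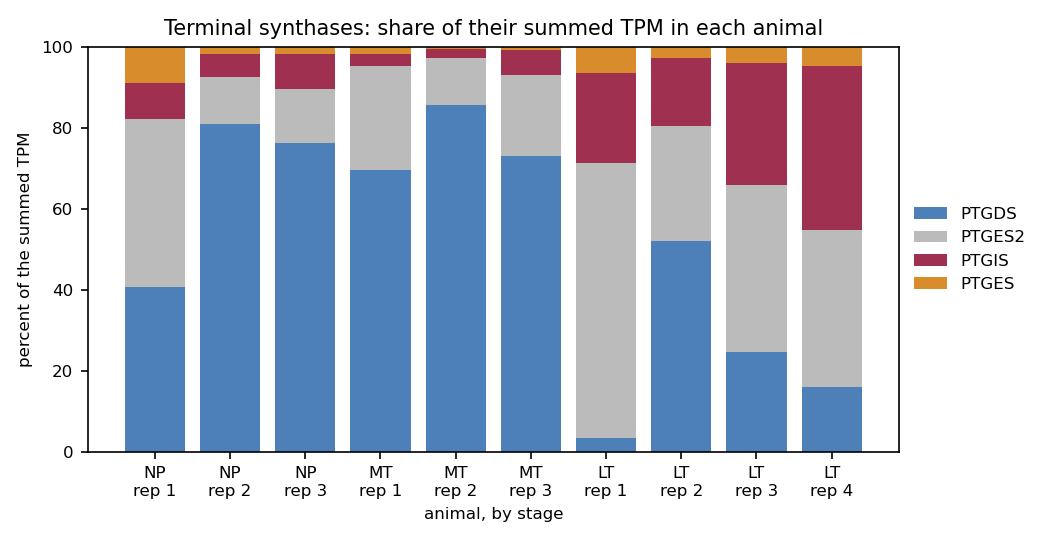
Percent of the summed TPM of PTGDS, PTGES2, PTGIS and PTGES (vertical axis, stacked from 0 to 100) in each of the 10 animals (horizontal axis). PTGES3 is left out of the sum. PTGDS takes 69.6% or more in every MT animal and 52.0% or less in every LT animal, and PTGIS takes 16.9% or more in every LT animal.

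HPGD, 15-hydroxyprostaglandin dehydrogenase, oxidises prostaglandin E2 and related prostaglandins to forms with little activity. It was at 34.1, 38.9 and 22.6 TPM in NP, at 106.1, 40.7 and 51.8 TPM in MT, and at 42.95, 55.8, 42.7 and 49.4 TPM in LT. Every pregnant animal was above every NP animal, by as little as 40.7 against 38.9 TPM, and MT replicate 1 was far above the rest. The log2FC was 0.94 from NP to MT with a 95% interval from 0.24 to 1.65 (adjusted p = 0.0628) and 0.59 from NP to LT with an interval from -0.06 to 1.25 (adjusted p = 0.115). Neither passed over all genes in the limma test, whereas with edgeR both did (adjusted p = 0.0424 and 0.0475). Without MT replicate 1 the limma value from NP to MT was 0.55 (adjusted p = 0.126). From MT to LT the value was -0.35 (adjusted p = 0.388), and without MT replicate 1 it was 0.045.

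The ratio of PTGES to HPGD, a synthase of prostaglandin E2 against the enzyme that inactivates it, was lowest at mid-pregnancy. It was 0.259, 0.165 and 0.222 in the NP animals, 0.0311, 0.0482 and 0.0483 in the MT animals, and 0.133, 0.101, 0.135 and 0.132 in the LT animals. The 3 stages did not overlap in this ratio. It covers PTGES alone, the least abundant of the E synthases, whose own level was lowest in MT. Ratios of PTGES2 and PTGES3 to HPGD were not computed. The ratio of PTGS2 to HPGD was 0.0982 to 0.130 in NP, 0.0847 to 0.274 in MT and 0.178 to 0.256 in LT. Here MT overlapped with both other stages, while NP and LT did not overlap. These are ratios of transcripts and not of enzyme activities.

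Of 10 other enzymes of prostanoid metabolism, 7 had a row and were tested. From NP to MT, PTGR1 and CBR3 fell and none was called higher. Between MT and LT, HPGDS, PTGR1 and CBR3 rose and none was called lower. The median log2FC of the 7 was -0.53 in the first comparison and 0.21 in the second. PTGR1, the reductase that acts on the product of HPGD, was at 36.0, 38.1 and 37.2 TPM in NP, at 14.6, 16.8 and 11.2 TPM in MT, and at 21.2, 24.0, 23.0 and 19.4 TPM in LT. No pair of stages overlapped. Its log2FC was -1.35 from NP to MT (SE 0.14, adjusted p = 0.00055) and 0.61 from MT to LT (SE 0.13, adjusted p = 0.0091). CBR3, a carbonyl reductase, had log2FC values of -0.95 (adjusted p = 0.0289) and 0.76 (adjusted p = 0.0376). The first of these calls was lost in 6 of the 19 settings, among them edgeR (adjusted p = 0.068), median-ratio scaling (0.0782) and the fits without MT replicate 2 or 3 (up to 0.109). The second was lost in 8, among them the fits without MT replicate 2 or 3 (up to 0.133) or without LT replicate 2, 3 or 4.

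**Figure D5:**
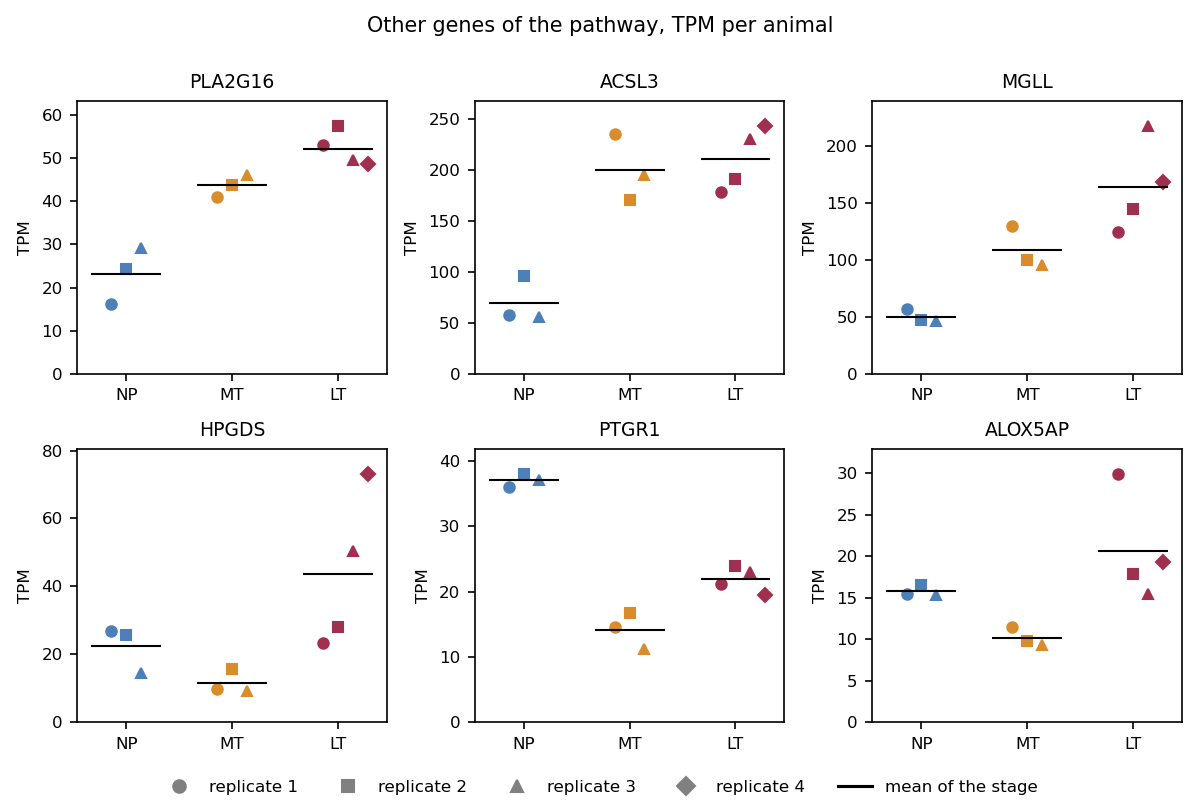
TPM of 6 other genes of arachidonic acid metabolism in each animal (vertical axes, starting at 0) by stage (horizontal axes), with a line at the mean. PLA2G16, ACSL3 and MGLL are higher in every pregnant animal than in every NP animal, and HPGDS, PTGR1 and ALOX5AP are higher in every LT animal than in every MT animal.

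The lipoxygenase branch takes arachidonic acid to leukotrienes instead. Of 12 genes listed, 10 had a row and 9 were tested. LTA4H, the hydrolase that makes leukotriene B4, was at 88.8, 83.4 and 89.4 TPM in NP, at 60.7, 68.98 and 60.6 TPM in MT, and at 54.5 to 61.5 TPM in LT. It was the only one of the 9 to pass from NP to MT (log2FC -0.46, adjusted p = 0.00718), and this call was lost with edgeR (adjusted p = 0.0581, or 0.0712 after filterByExpr) and after median-ratio scaling (0.058). Between NP and LT its log2FC was -0.56 (adjusted p = 0.000491), a call kept in all settings but edgeR after filterByExpr (0.068), and ALOX15 and GGT5 were called lower there too. ALOX5AP, the protein that presents arachidonic acid to 5-lipoxygenase, was at 15.4, 16.6 and 15.3 TPM in NP, at 11.4, 9.83 and 9.24 TPM in MT and at 30.0, 17.9, 15.4 and 19.3 TPM in LT, and it was the only one to pass from MT to LT (0.92, adjusted p = 0.00804). Its NP and LT animals overlapped (log2FC 0.33, adjusted p = 0.172). The summed leukocyte markers ranged from 216 to 515 TPM in NP, from 219 to 256 TPM in MT and from 253 to 393 TPM in LT. Of 10 tested, CD14 and CSF3R were called higher in LT than in MT and none lower, where 6.73% of all genes were called higher. CD14 had means of 28.6 and 68.6 TPM and CD68 of 27.0 and 52.1 TPM, whereas PTPRC, which all leukocytes carry, had 9.62 and 6.89 TPM and the T cell gene CD3E 5.39 and 2.02 TPM. The part of leukocytes in the change of ALOX5AP was not tested.

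Receptors and transporters of prostanoids had 8 rows of 11 genes listed, and 7 were tested. From NP to MT, PTGDR, a receptor of prostaglandin D2, and SLCO2A1, the prostaglandin uptake transporter, rose, and PTGER1, a receptor of prostaglandin E2, and ABCC4, an exporter, fell. Their log2FC values were 1.25 (adjusted p = 0.0108), 0.72 (adjusted p = 0.0405), -1.25 (adjusted p = 0.0059) and -0.67 (adjusted p = 0.0426). The call of ABCC4 was lost in 15 of the 19 settings, with edgeR (adjusted p = 0.0955), DESeq2 (0.0549) and median-ratio scaling (0.129) among them and without any 1 of NP replicate 2, the MT animals or the LT animals. That of SLCO2A1 was lost in 8, among them the fits without NP replicate 2 or 3, without MT replicate 1 or 3 (up to 0.137) and without LT replicate 2 or 3. PTGDR missed the threshold without MT replicate 3 (0.0506), and PTGER1 passed in all 19. Between MT and LT, PTGDR fell (-1.17, adjusted p = 0.00816), and no other of the 7 passed. PTGDR was low throughout, between 1.12 and 2.04 TPM for NP, 3.57 and 6.37 TPM for MT and 1.34 and 2.52 TPM for LT. Other receptors were called higher in LT than in NP, PTGER2 for prostaglandin E2 (log2FC 1.38, adjusted p = 0.00888) and PTGFR for prostaglandin F2 alpha (1.40, adjusted p = 0.03), while PTGER1, TBXA2R and ABCC4 were called lower.

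Over the 5 lists together, 10 of 46 genes tested passed from NP to MT (21.7%, 5 higher and 5 lower), 10 of 46 from MT to LT (21.7%, 6 higher and 4 lower) and 23 of 46 from NP to LT (50.0%, 8 higher and 15 lower). These shares lie near those of all genes given above. The split by direction depended on the scaling. After median-ratio scaling it was 6 higher and 2 lower from NP to MT, 9 and 3 from MT to LT, and 13 and 9 from NP to LT, and with edgeR it was 6 and 4, 8 and 4, and 13 and 10. With DESeq2, 19 of the 46 were called from NP to MT, 9 higher and 10 lower. Over all genes DESeq2 called 3121 there, 1662 higher and 1459 lower. The counts over all genes for scaling and edgeR are given above. In limma the NP to MT count among the 46 was 22 without NP replicate 1 and 6 without MT replicate 3. From MT to LT it was 6 without MT replicate 2 and also without LT replicate 2, 3 or 4.

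The genes whose course across the 10 animals was most like that of an enzyme were found among 11402 named genes by the root mean square difference of their centred log2(TPM + 1) values, which is 0 for an identical course. For PLA2G10 these were FGFBP1 (0.866), CLCA1 (0.998) and SCGB3A1 (1.08), where PLA2G10 itself had a root mean square of 3.42. For PTGS2 they were SLC35F1 (0.189), SEMA3E (0.197) and GFPT1 (0.206), against its own 0.632. For PTGES they were BZW2 (0.146), HMGA1 (0.162) and AT1B3_CAVPO (0.179), against its own 0.513, and for HPGD they were ANO9 (0.203), PLXNB1 (0.211) and RUNX1 (0.264), against its own 0.528.

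Ordered by their mean TPM, the genes at the top and bottom of the group changed places with stage. The highest mean belonged to PTGES3 in the NP animals (234 TPM), to PTGDS in the MT animals (232 TPM, followed by PTGES3 at 203 and PLA2G10 at 201 TPM) and to PLA2G10 in the LT animals (395 TPM). In every stage the genes at the top of the order overlapped in their animals. In NP, PTGDS ranged from 40.1 to 308.5 TPM and PTGES3 from 205.8 to 259.8 TPM. In LT, PLA2G10 ranged from 152.3 to 535.9 TPM and PTGES3 from 208.4 to 241.0 TPM. PLA2G10 had the lowest mean in NP, and PTGES the lowest in MT and LT. An exact permutation test of the F statistic over the 3 stages, on square-root TPM and over 4200 assignments, gave an unadjusted p of 0.0105 for PLA2G10, 0.0143 for PLA2G4A, 0.00667 for PTGS2, 0.01 for PTGES, 0.00905 for PTGES2 and 0.0486 for PTGIS. It gave 0.138 for PTGES3, 0.0786 for PTGDS and 0.0614 for HPGD.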

How the data were processed

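The authors deposited 1 table with a count of reads and a TPM value for each Ensembl gene and animal. Libraries were poly A selected and strand-specific and were read for 75 bases from 1 end. Per the submitters' processing notes and the methods, reads were called with CASAVA 1.8.2, aligned with TopHat2 to cavPor3.69 and counted with HTSeq 0.5.4p1, and the authors computed TPM from the counts. The strand setting of the counting is not given in the sources used here. Both units were used as deposited.

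The 12645 genes whose mean reached 3 TPM in any stage were tested on log2(TPM + 1) with limma 3.58.1 (trend, R 4.3.3) in 1 fit of 10 animals with stage as the only term, with Benjamini-Hochberg adjustment over all of them and a threshold of 0.05. All 9 enzymes passed the filter. Fold changes (log2FC) are on this scale, so that those of low genes are too small. Exact permutation tests were two-sided, used mean square-root TPM and were not adjusted. With 3 animals against 3 their smallest p is 0.1.

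The alternatives were square-root TPM, a pseudocount of 0.1, no filter (18100 genes), median-ratio scaling of the TPM, edgeR 4.0.16 (quasi-likelihood, with the TPM filter or filterByExpr), DESeq2 1.42.0, only the stages compared, the replicate number as a block, and each animal left out. The scripts were checked on simulated data. The genes and the lists were chosen with earlier results of these data known. Of the listed genes that are not among the 9 enzymes, those named are the 5 most abundant in each list among those called from NP to MT or from MT to LT, and names outside this rule were added after the values were seen. No genome of the build used for the table was at hand, so no sequence or position is printed. A planned share of the cyclo-oxygenases was not computed, because PTGS1 was not analysed here.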

Additional observations from a re-analysis of the deposited data

Results flagged for a closer look

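The 9 enzymes were screened in the LT animals, the only stage with 4 animals, for an animal far from the other 3 by Dixon's ratio of the gap to the range, at its 95% critical value. Such a screen picks out about 1 group in 20 by chance. LT replicate 4 stood apart for 2 enzymes. It had the highest PTGES, at 6.53 TPM against 5.65 to 5.79 TPM in the other LT animals, and the lowest PTGES2, at 52.8 TPM against 59.1 to 60.3 TPM.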

How the results depend on the processing

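Of 27 log2 fold changes (9 enzymes in 3 comparisons), 9 kept their direction and their side of the threshold under all 19 alternatives. The number of all genes called from NP to MT was 1113 with only the 2 stages in the fit, and 1099 (without MT replicate 3) to 4202 (without NP replicate 1) over the 10 fits that left out an animal. It was 1451 without NP replicate 2. From MT to LT it ranged from 1944 (without MT replicate 2) to 5354 over those fits, with 2408 without LT replicate 3. The enzymes called from MT to LT numbered 2 to 4 over those fits. From NP to LT they numbered 6 after median-ratio scaling, 6 with edgeR, 7 with DESeq2 and 7 with edgeR after filterByExpr. Scaling also moved the split of calls over all genes. The share of calls that were higher went from 33.9% to 57.3% from NP to MT, from 22.9% to 47.8% from MT to LT, and from 21.1% to 49.8% from NP to LT.

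Some values turned their sign, none of them called in the limma test of the report. Under median-ratio scaling, edgeR, DESeq2 and edgeR with filterByExpr in turn, the log2 fold change of PTGS2 from MT to LT was 0.015, 0.0024, 0.00012 and 0.015, that of PTGES from NP to LT was 0.11, 0.08, 0.08 and 0.10, and that of PTGES3 from NP to LT was 0.23, 0.23, 0.24 and 0.26. With 1 animal left out, the range was -0.06 to 0.19 for PLA2G4A, -0.30 to 0.048 for PTGES and -0.15 to 0.017 for PTGES3 from NP to LT, -0.27 to 1.18 for PTGDS from NP to MT, and -0.64 to 0.045 for HPGD from MT to LT. Beyond the scaling itself, the cause was not tested.

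The replicate numbers did not pair the animals. The deviations of same-numbered animals from their stage means correlated at -0.287 to 0.254, over 0.1 in 3 of 9 pairs. With the replicate number as a block, which drops LT replicate 4 in effect, 1693 genes were called from MT to LT and 5 enzymes from NP to LT. Of the 46 other pathway genes 4 were called from MT to LT, and PTGDR missed the threshold there (adjusted p = 0.0514). PLA2G4A from NP to LT was at -0.0004. Few reads limit PLA2G10 in NP (5 to 8 reads) and PTGES in MT (15 to 26 reads).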
